A study of Mus musculus with 3 samples.

Results

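The mouse mitochondrial genome carries 37 genes, and all of them are among the 55471 features of the deposited expression table, where they were taken as every feature whose symbol begins with mt-. They are 13 protein genes, 2 ribosomal RNA (rRNA) genes and 22 transfer RNA (tRNA) genes. Of the 37, 27 averaged 1 TPM or more across the libraries: all 13 protein genes, both rRNA genes and 12 tRNA genes. TPM, a length-scaled measure of transcript abundance, is the read number of a gene divided by its length, scaled to a common total in each library, so that levels can be compared between genes. A total of 14527 features of the table passed the same minimum and are called measured features here.

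RNA came from 3 cultured populations of JC, a mouse mammary carcinoma line that the labels describe as epithelial-like. JC-M3 was grown out of lung lesions taken 28 days after injection into the tail vein, through 3 such cycles. JC-P was recovered from mammary fat pad tumours at day 14 and was the source of the cells injected to derive JC-M3. JC-WT is labelled WT, and no tumour or lesion is named for it. All 3 carry the genotype label WT, were kept in DMEM with 10% fetal bovine serum, and are described with no transgene, knockout or drug. A label of JC-P names metastasis as its treatment, as for JC-M3, while its other labels and the design text place it in the fat pad tumour. Whether a population is 1 clone, and how many animals it came from, is not given in the sources used here. Each group is 1 library, so there is no replicate spread, no test was possible, and each ratio compares 2 libraries, not 2 conditions. In such bulk RNA, fewer mitochondria per cell, fewer mitochondrial genomes per mitochondrion and less RNA per genome cannot be told apart, and neither can fewer cells of a type and less RNA per cell.

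The libraries held 23378000 counted reads in JC-M3, 22124700 in JC-P and 18088800 in JC-WT, recovered from the TPM as whole numbers. RNA was enriched with oligo(dT), which binds poly(A) tails, and libraries kept strand. Of 11 epithelial markers 3 were measured, all keratins. Krt8 had 681 TPM in JC-M3, 1873 in JC-P and 1503 in JC-WT, and Krt18 had 18.4, 48.5 and 48.6 TPM. Krt7 went another way and was low, with 1.70 TPM in JC-M3, 0.583 in JC-P and 1.74 in JC-WT. Epcam and Cldn7 were at 0 throughout. All 8 mesenchymal markers were measured, with a summed level of 4425 TPM in JC-M3, 3695 in JC-P and 3195 in JC-WT. Their median log2 ratio for JC-M3 over JC-WT was 1.07. Of the 8, 5 were at least 2-fold higher, as were 6.14% of measured features, and 2 were below 0. The collagen gene Col1a1 had 949 TPM in JC-M3, 261 in JC-P and 132 in JC-WT. The filament gene Vim was nearly level at 2384, 2674 and 2528 TPM. Pdgfra and the collagen gene Col3a1 were highest in JC-P. Pdgfra had 20.1 TPM in JC-M3, 47.6 in JC-P and 34.1 in JC-WT, and Col3a1 had 8.76, 46.0 and 3.99 TPM. The markers thus bear out the epithelial-like label only in part, and the part of the mesenchymal difference in the mitochondrial levels was not tested. None of 5 genes of muscle and brown fat, tissues rich in mitochondria, was measured, and neither was any of 3 globin genes. Of 6 immune genes 1 was measured, and Ptprc, Adgre1 and Cd3e were at 0. Of 5 endothelial genes 2 were measured (Cdh5 and Plvap) and Kdr and Cldn5 were at 0. The sum of the 5 was 3.05 TPM in JC-M3, 35.8 in JC-P and 7.83 in JC-WT, and its part in the mitochondrial levels of JC-P was not tested.

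Mitochondrial DNA is a small circle transcribed on both strands into long RNAs that span many genes. The heavy strand, given as the plus strand in the annotation, supplies most genes and the light strand supplies mt-Nd6 and several tRNAs. The tRNAs lie between the larger genes, and enzymes that cut at their ends release the mRNAs and rRNAs. A poly(A) tail is then added to most of the mRNAs, and in several of them it completes the stop codon. The encoded proteins are core subunits of the respiratory chain (complexes I, III and IV) and of the ATP synthase, whose other subunits come from nuclear genes. Stretches of mitochondrial DNA have also been copied into nuclear chromosomes, where they can be annotated as pseudogenes.

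The compactness of this genome bears on how reads can be assigned, so the sequences of the places where genes meet are shown, on GRCm38 and from the GENCODE M21 transcripts. The gene for ATP synthase subunit 8, mt-Atp8 (chrM:7766-7969, plus strand), shares its last 43 bases, in capitals, with the start of mt-Atp6. The last 60 bases of mt-Nd4l (chrM:10114-10173, plus strand) end in 7 bases, in capitals, shared with mt-Nd4.
mt-Atp8: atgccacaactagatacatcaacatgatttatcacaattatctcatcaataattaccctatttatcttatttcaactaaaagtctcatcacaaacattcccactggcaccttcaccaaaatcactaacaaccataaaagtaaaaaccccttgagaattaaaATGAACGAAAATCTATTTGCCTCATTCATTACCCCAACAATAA
mt-Nd4l: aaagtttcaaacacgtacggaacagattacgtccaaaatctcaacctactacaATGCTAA

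The genes mt-Cytb, mt-Co3 and mt-Nd4 end on a single T, in capitals, that becomes a stop codon once adenines are added. These 3 of the 13 protein genes leave 1 base over after division into codons. The last 30 bases are given for mt-Cytb (chrM:15259-15288, plus strand), mt-Co3 (chrM:9361-9390, plus strand) and mt-Nd4 (chrM:11515-11544, plus strand). Beside them stand mt-Nd5 (chrM:13536-13565, plus strand) and mt-Nd6 (chrM:13552-13581, minus strand), whose stop codons are whole, also in capitals, and whose ends overlap by 14 bases on opposite strands.
mt-Cytb end: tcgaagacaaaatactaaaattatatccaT
mt-Co3 end: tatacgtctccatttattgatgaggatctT
mt-Nd4 end: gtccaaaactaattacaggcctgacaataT
mt-Nd5 end: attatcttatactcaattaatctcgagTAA
mt-Nd6 end: tttattattatcgagattactcgagatTAA

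Mitochondrial transcripts made up 5.22% of all TPM in JC-M3, 5.46% in JC-P and 4.51% in JC-WT. They took a smaller share of the reads, since the genes are short: 1.93% in JC-M3 (95% binomial interval by the exact Clopper-Pearson method, 1.92 to 1.94%), 2.09% in JC-P (2.08 to 2.09%) and 1.69% in JC-WT (1.69 to 1.70%). On the log2 scale the summed level differed by -0.06 for JC-M3 over JC-P, by 0.21 for JC-M3 over JC-WT and by 0.28 for JC-P over JC-WT. These intervals cover counting error only, and they treat each read as an independent molecule, which duplicate reads are not. The small difference of the sum joined unlike parts. Protein genes held 5.02% of TPM in JC-M3, 5.25% in JC-P and 4.25% in JC-WT, so their share was higher in both tumour-derived populations than in JC-WT. The rRNA genes ran the other way, with 0.151% in JC-M3, 0.174% in JC-P and 0.230% in JC-WT.

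**Figure D1:**
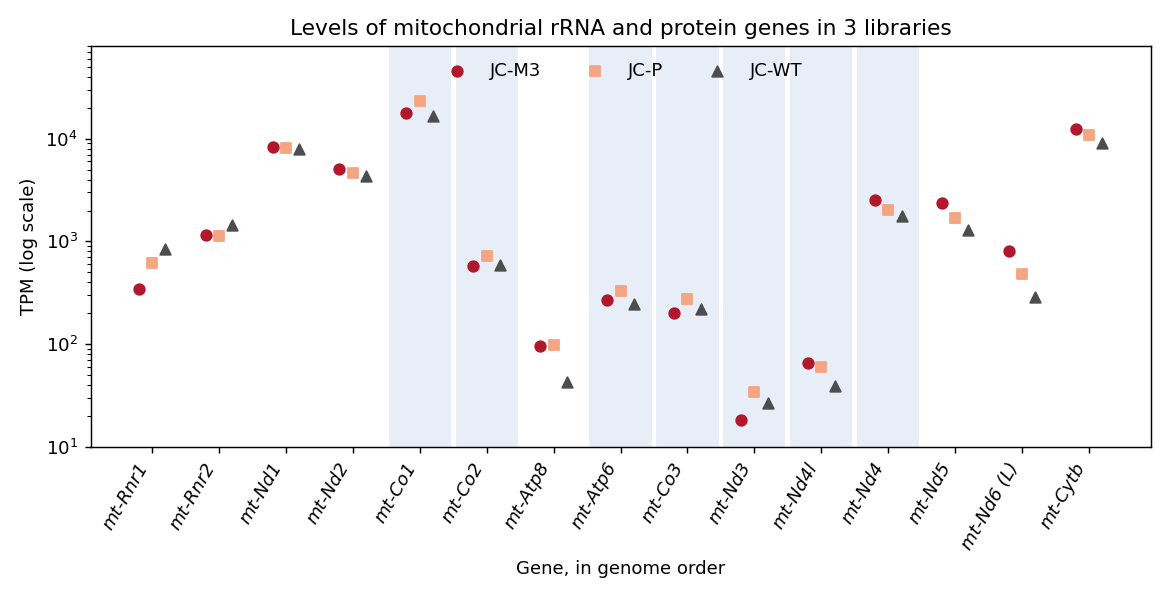
Level of the 13 protein and 2 rRNA genes of the mitochondrial genome in JC-M3, JC-P and JC-WT, in TPM on a log axis, in order along the genome; each point is 1 library. Shaded genes share 10% or more of their 50-base windows with another annotated transcript. mt-Co1 is the highest in all 3 libraries, at 17692, 23037 and 16638 TPM, and mt-Nd3 the lowest. Levels of shaded genes may be understated, since reads that fit a copy equally may be missing.

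The rRNA genes differed from each other as well as from the mRNAs. mt-Rnr1 (ENSMUSG00000064337, chrM:70-1024, plus strand), the 12S RNA of the small mitochondrial ribosomal subunit, had 342 TPM in JC-M3, 611 in JC-P and 839 in JC-WT. It was lowest in JC-M3 and highest in JC-WT, with a log2 ratio of -0.83 for JC-M3 over JC-P (95% counting interval -0.91 to -0.76), -1.29 for JC-M3 over JC-WT (-1.37 to -1.22) and -0.46 for JC-P over JC-WT (-0.52 to -0.40). Each ratio is of TPM + 0.5, and the interval is the exact conditional one of the plain ratio, from the recovered reads (2243 in JC-M3, 3832 in JC-P and 4300 in JC-WT). mt-Rnr2 (ENSMUSG00000064339, chrM:1094-2675, plus strand), the 16S RNA of the large subunit, had 1166 TPM in JC-M3, 1126 in JC-P and 1461 in JC-WT. It was lower in both tumour-derived populations than in JC-WT, by log2 ratios of -0.32 for JC-M3 (-0.36 to -0.29) and -0.38 for JC-P (-0.41 to -0.34), while JC-M3 and JC-P lay 0.05 apart (0.01 to 0.09). Within a library, mt-Rnr2 stood at 3.41 times mt-Rnr1 in JC-M3, 1.84 times in JC-P and 1.74 times in JC-WT. The 2 genes neighbour each other with only the gene of tRNA valine between them. Mature mitochondrial rRNAs carry short tails at most, so these levels describe the rRNA that passed the enrichment and not the rRNA content of the cells.

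Among the 13 protein genes, 7 were highest in JC-M3 (mt-Nd1, mt-Nd2, mt-Nd4l, mt-Nd4, mt-Nd5, mt-Nd6 and mt-Cytb) and 6 in JC-P (mt-Co1, mt-Co2, mt-Co3, mt-Atp6, mt-Atp8 and mt-Nd3). None was highest in JC-WT, where 10 were lowest. A log2 ratio above 0 was held by 7 of 13 for JC-M3 over JC-P (49.2% of measured features), by 10 of 13 for JC-M3 over JC-WT (50.1%) and by all 13 for JC-P over JC-WT (50.9%). The split followed the complexes apart from mt-Nd3. Complex I and complex III genes were highest in JC-M3, and complex IV and ATP synthase genes in JC-P. In part it also followed nuclear copies. All genes highest in JC-P except mt-Atp8 had from 51.1% (mt-Co1) to 100% (mt-Co2) of their 50-base windows in other annotated transcripts. Among those highest in JC-M3, mt-Nd4 (62.2%) and mt-Nd4l (98.8%) did as well. The part of the copies in the split was not tested. For mt-Nd1, mt-Nd4l, mt-Atp8 and mt-Nd3 the first place was not separated from the second by the counting interval. The median log2 ratio of the 13 was 0.00 for JC-M3 over JC-P, 0.22 for JC-M3 over JC-WT and 0.36 for JC-P over JC-WT. Over all measured features the same medians were -0.01, 0.00 and 0.01.

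Counts of 2-fold differences were read against the measured features. No protein gene and neither rRNA gene reached it for JC-M3 over JC-P, where 9.2% of measured features did (3.82% higher and 5.38% lower). For JC-M3 over JC-WT, mt-Nd6 and mt-Atp8 were 2-fold or more higher, 2 of 13 protein genes, against 6.14% of measured features higher and 11.4% different in either direction. mt-Rnr1 was 2-fold or more lower in that comparison, as were 5.27% of measured features. For JC-P over JC-WT, mt-Atp8 alone of the 13 was called, against 4.76% of measured features higher, 2.33% lower and 7.1% in either direction. Counting intervals that lay wholly above 0 were held by 5 of 13 protein genes for JC-M3 over JC-P (29.5% of measured features), by 10 for JC-M3 over JC-WT (29.4%) and by 12 for JC-P over JC-WT (27.1%). Intervals wholly below 0 were held by 5, 0 and 0 protein genes, against 30.1%, 30.7% and 28.3% of measured features. The interval narrows with depth, and protein members had a median of 2859 reads in JC-M3, 3222 in JC-P and 2189 in JC-WT, against 553, 533 and 436 for measured features. The comparisons share libraries and are therefore not independent of each other.

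Complex I, which passes electrons from NADH to ubiquinone, has 7 mitochondrially encoded subunits, with a summed level of 19037 TPM in JC-M3, 17123 in JC-P and 15602 in JC-WT. mt-Nd1 (ENSMUSG00000064341, chrM:2751-3707, plus strand) differed least, at 8225 TPM in JC-M3, 8206 in JC-P and 7861 in JC-WT. Its log2 ratios were 0.00 for JC-M3 over JC-P (-0.01 to 0.02), 0.07 for JC-M3 over JC-WT (0.05 to 0.08) and 0.06 for JC-P over JC-WT (0.04 to 0.08). The next gene on the heavy strand, mt-Nd2 (ENSMUSG00000064345, chrM:3914-4951, plus strand), had 5051 TPM in JC-M3, 4611 in JC-P and 4331 in JC-WT, with log2 ratios of 0.13, 0.22 and 0.09 in the same 3 comparisons. Both encode membrane subunits of the complex. Their differences were smaller than those of mt-Nd4 and mt-Nd5.

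mt-Nd4 (ENSMUSG00000064363, chrM:10167-11544, plus strand), a membrane subunit related to cation antiporters, had 2528 TPM in JC-M3, 2019 in JC-P and 1762 in JC-WT. JC-M3 was higher than JC-P by 0.32 on the log2 scale (0.30 to 0.35) and than JC-WT by 0.52 (0.49 to 0.55), and JC-P was higher than JC-WT by 0.20 (0.16 to 0.23). mt-Nd5 (ENSMUSG00000064367, chrM:11742-13565, plus strand), of the same family, had 2346 TPM in JC-M3, 1708 in JC-P and 1292 in JC-WT. Its libraries stood in the same order with wider steps: 0.46 for JC-M3 over JC-P (0.43 to 0.48), 0.86 for JC-M3 over JC-WT (0.83 to 0.89) and 0.40 for JC-P over JC-WT (0.37 to 0.44). Set against mt-Nd1 in the same library, mt-Nd5 stood at 0.285 of it in JC-M3, 0.208 in JC-P and 0.164 in JC-WT.

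The short complex I genes had few reads. mt-Nd4l (ENSMUSG00000065947, chrM:9877-10173, plus strand) had 134 reads (65.8 TPM) in JC-M3, 117 reads (59.9 TPM) in JC-P and 63 reads (39.5 TPM) in JC-WT. It was higher in both tumour-derived populations than in JC-WT, with log2 ratios of 0.73 for JC-M3 (0.29 to 1.19) and 0.59 for JC-P (0.15 to 1.07), and JC-M3 over JC-P, at 0.13, had an interval that spanned 0 (-0.24 to 0.50). mt-Nd3 (ENSMUSG00000064360, chrM:9459-9806, plus strand) had 44 reads (18.4 TPM) in JC-M3, 79 reads (34.5 TPM) in JC-P and 50 reads (26.8 TPM) in JC-WT. It was the lowest protein gene in every library and the only complex I gene that was lowest in JC-M3. The log2 ratio was -0.89 for JC-M3 over JC-P (-1.47 to -0.36), while -0.53 for JC-M3 over JC-WT (-1.16 to 0.08) and 0.36 for JC-P over JC-WT (-0.16 to 0.91) could not be told from 0 by counting error alone. Both genes are nearly identical to nuclear copies, described with the copies, so their reads are uncertain and their levels may be understated.

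mt-Nd6 (ENSMUSG00000064368, chrM:13552-14070, minus strand) is the only protein gene of the light strand and showed the largest difference between JC-M3 and JC-WT of the 13. It had 803 TPM in JC-M3 (2859 reads), 484 in JC-P (1650 reads) and 289 in JC-WT (805 reads). Steps of like size separated the libraries: 0.73 for JC-M3 over JC-P (0.64 to 0.82) and 0.74 for JC-P over JC-WT (0.62 to 0.87), which came to 1.47 for JC-M3 over JC-WT (1.36 to 1.59). Within a library mt-Nd6 stood at 0.342 of mt-Nd5, its neighbour on the other strand, in JC-M3, 0.283 in JC-P and 0.224 in JC-WT. No 50-base window of it occurs in another annotated transcript. As for the rRNAs, the level of mt-Nd6 describes the RNA that passed the oligo(dT) enrichment. The length of its tail was not examined.

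Complex III is represented by mt-Cytb (ENSMUSG00000064370, chrM:14145-15288, plus strand), cytochrome b, of the complex that moves electrons from ubiquinol to cytochrome c. It was the second most abundant member, with 12378 TPM in JC-M3, 10949 in JC-P and 9109 in JC-WT. JC-M3 was higher than JC-P by 0.18 on the log2 scale (0.16 to 0.19) and than JC-WT by 0.44 (0.43 to 0.46), and JC-P was higher than JC-WT by 0.27 (0.25 to 0.28). No window of mt-Cytb occurs in another annotated transcript, and of the members without one it had the most reads (97153 in JC-M3, 82312 in JC-P and 55932 in JC-WT).

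Complex IV, the oxidase that passes electrons to oxygen, has 3 mitochondrially encoded subunits, which form its catalytic core. mt-Co1 (ENSMUSG00000064351, chrM:5328-6872, plus strand) was the most abundant member, with 17692 TPM in JC-M3, 23037 in JC-P and 16638 in JC-WT. JC-P stood above both others: the log2 ratio was -0.38 for JC-M3 over JC-P (-0.39 to -0.37), 0.09 for JC-M3 over JC-WT (0.08 to 0.10) and 0.47 for JC-P over JC-WT (0.46 to 0.48). mt-Co2 (ENSMUSG00000064354, chrM:7013-7696, plus strand) had 573 TPM in JC-M3, 717 in JC-P and 596 in JC-WT. mt-Co3 (ENSMUSG00000064358, chrM:8607-9390, plus strand) had 201 TPM in JC-M3, 276 in JC-P and 218 in JC-WT. All 3 were thus highest in JC-P, and JC-M3 over JC-P was -0.32 for mt-Co2 and -0.46 for mt-Co3. For JC-M3 over JC-WT the intervals of mt-Co2 (-0.14 to 0.03) and mt-Co3 (-0.24 to 0.01) spanned 0. Both mt-Co2 and mt-Co3 have nuclear copies, described with the copies, so the origin of their reads is uncertain. Complex IV genes held 35.4% of mitochondrial TPM in JC-M3, 44.0% in JC-P and 38.7% in JC-WT, and nearly all of that was mt-Co1. Reads that fit a copy equally well may be missing from mt-Co2 and mt-Co3. Their levels and part in this share may then be understated, which was not tested. Without mt-Co1 the summed protein level ordered the libraries differently, with 32552 TPM in JC-M3, 29492 in JC-P and 25811 in JC-WT.

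The ATP synthase, which makes ATP from the proton gradient, has 2 mitochondrially encoded membrane subunits, on overlapping genes. mt-Atp6 (ENSMUSG00000064357, chrM:7927-8607, plus strand) had 267 TPM in JC-M3, 330.0 in JC-P and 243 in JC-WT, with log2 ratios of -0.31, 0.13 and 0.44 for JC-M3 over JC-P, JC-M3 over JC-WT and JC-P over JC-WT. mt-Atp8 (ENSMUSG00000064356) had 134 reads (95.7 TPM) in JC-M3, 131 reads (97.7 TPM) in JC-P and 47 reads (42.9 TPM) in JC-WT. Both tumour-derived populations were about equally above JC-WT: the log2 ratio was 1.15 for JC-M3 (0.67 to 1.67) and 1.18 for JC-P (0.70 to 1.70), with -0.03 between them (-0.39 to 0.33). mt-Atp8 and mt-Atp6, which share 43 bases and lie on 1 mRNA, thus differed by unlike amounts. Of the 50-base windows of mt-Atp6, 99.5% occur in another annotated transcript, and of mt-Atp8 none does. The origin of the mt-Atp6 reads is thus uncertain, and the level of mt-Atp6 may be understated. Reads that touch both genes can be lost or counted in either, and mt-Atp8 is the shortest protein gene, at 204 bases, so its value rests on few reads.

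**Figure D2:**
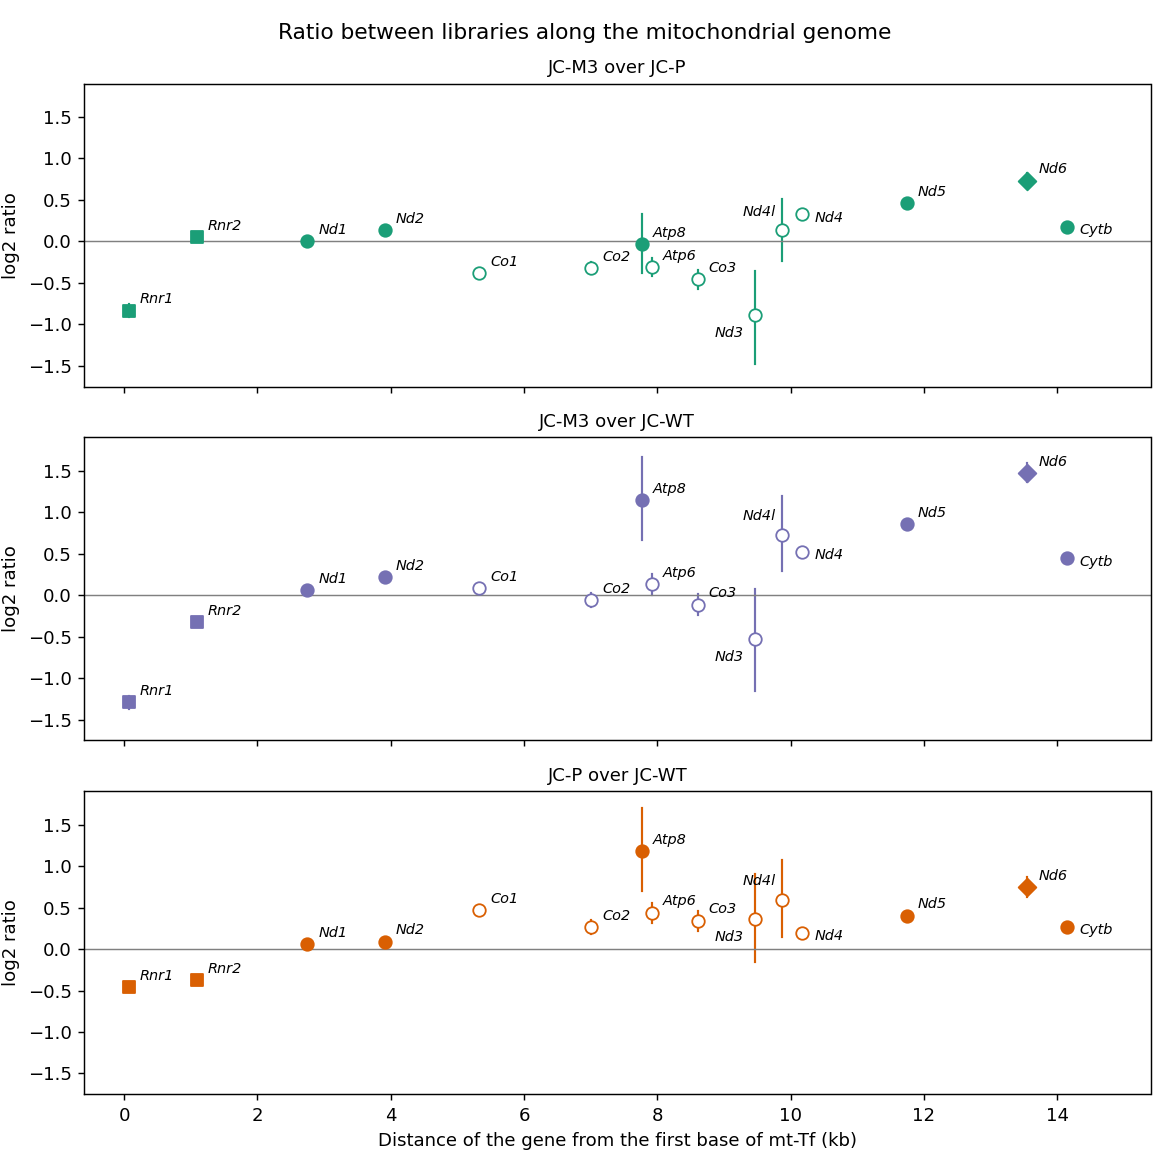
Log2 ratio of TPM + 0.5 along the mitochondrial genome for JC-M3 over JC-P, JC-M3 over JC-WT and JC-P over JC-WT; the x axis is the distance in kb from the first base of mt-Tf, lines are 95% counting intervals, squares are rRNA genes, diamonds the light-strand gene mt-Nd6 and circles the other protein genes. Hollow symbols mark genes with 10% or more of their 50-base windows in another annotated transcript. For JC-M3 over JC-WT the filled symbols run from -1.29 at mt-Rnr1 to 1.47 at mt-Nd6.

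Ratios tended to be higher further along the heavy strand, with exceptions; its long transcript starts before mt-Rnr1 and has mt-Cytb near its end. Over the 12 heavy-strand protein genes and 2 rRNA genes, the Spearman correlation of start position with log2 ratio was 0.47 for JC-M3 over JC-P, 0.57 for JC-M3 over JC-WT and 0.48 for JC-P over JC-WT (n = 14 genes). In the 7 of them with under 10% of windows shared with other transcripts the values were 0.71, 0.86 and 0.86. Over the 12 protein genes alone they were 0.46, 0.37 and 0.17. The rRNA genes at the start of the strand therefore carry part of it. These genes share libraries and precursor RNAs, and the values are descriptions of these 3 libraries. For JC-M3 over JC-WT the 7 lightly shared genes read, in genome order, -1.29 for mt-Rnr1, -0.32 for mt-Rnr2, 0.07 for mt-Nd1, 0.22 for mt-Nd2, 1.15 for mt-Atp8, 0.86 for mt-Nd5 and 0.44 for mt-Cytb. The last gene, mt-Cytb, lay below mt-Nd5 and mt-Atp8, so the order was not complete.

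Transcripts of the light strand, mt-Nd6 and 8 tRNA genes, summed to 1122 TPM in JC-M3, 718 in JC-P and 449 in JC-WT. That is 2.15% of mitochondrial TPM in JC-M3, 1.31% in JC-P and 0.996% in JC-WT, with ratios of 1.56 for JC-M3 over JC-P, 2.50 for JC-M3 over JC-WT and 1.60 for JC-P over JC-WT. mt-Nd6 gave most of this sum, which likewise describes the RNA that passed the oligo(dT) enrichment. The 8 light-strand tRNA genes had 149 reads in JC-M3, 104 in JC-P and 59 in JC-WT, and the 14 heavy-strand tRNA genes had 77, 62 and 60 reads. Scaled for depth, the light-strand tRNA genes summed to 319 TPM in JC-M3, 234 in JC-P and 160 in JC-WT, and the heavy-strand ones to 161, 132 and 158 TPM. The light-strand excess over JC-WT rested on mt-Tp: without it the other 7 genes had 51 reads (106 TPM) in JC-M3, 23 reads (49.9 TPM) in JC-P and 30 reads (79.3 TPM) in JC-WT. JC-P was the lowest of these, and the log2 ratio of the 7 was 0.42 for JC-M3 over JC-WT (-0.27 to 1.11) and -0.67 for JC-P over JC-WT (-1.53 to 0.16), both with intervals that spanned 0. The strand setting of the counting is not given in the sources used here, and the table itself bears on it. Of 436 features that lie wholly under exons of the other strand, 23.9% had a read in JC-M3, 23.2% in JC-P and 19.5% in JC-WT. Of 713 that lie wholly under exons of the same strand, 0.421% had one in JC-M3, 0.842% in JC-P and 0.842% in JC-WT. Features with no overlap had one in 32.4%, 32.2% and 30.4% of cases.

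The tRNA genes are 59 to 75 bases long, and mature tRNAs carry no poly(A) tail. Their reads can come from precursors or from RNAs that run past a gene's end, and which of these they are was not tested. The whole class had 226 reads in JC-M3, 166 in JC-P and 119 in JC-WT. Of the 22 genes, 9 had no read in any library: mt-Tf, mt-Tv, mt-Td, mt-Tk, mt-Tg, mt-Tr, mt-Th, mt-Ts2 and mt-Tl2. All 9 are among the 14 heavy-strand genes and none among the 8 of the light strand. Of the 9, mt-Tv, mt-Tk, mt-Tg, mt-Tr, mt-Th, mt-Ts2 and mt-Tl2 have a same-strand gene within 5 bases on both sides. The gene before mt-Td lies 69 bases away, and mt-Tf is the first gene of the numbering. Of the 5 heavy-strand tRNA genes with a read, mt-Tl1 has such neighbours on both sides. If all reads of a gene are counted for it, a count of 0 allows up to 3 reads. For a gene of 69 bases that is 6.34 TPM in JC-M3, 6.62 in JC-P and 8.10 in JC-WT. Reads that also touch a same-strand neighbour may be lost or counted for the neighbour. At genes with close neighbours a count of 0 therefore sets no such bound, and the part of this in the heavy-strand zeros was not tested.

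Only 5 tRNA genes reached 10 reads in a library, and their sequences are shown because the tRNA results turn on them. They are mt-Tp (tRNA proline, chrM:15356-15422, minus strand), mt-Tw (tryptophan, chrM:4950-5016, plus strand), mt-Tq (glutamine, chrM:3772-3842, minus strand), mt-Tl1 (leucine, chrM:2676-2750, plus strand) and mt-Tm (methionine, chrM:3845-3913, plus strand). No part is set in capitals.
mt-Tp: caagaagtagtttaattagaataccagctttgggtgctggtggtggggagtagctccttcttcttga
mt-Tw: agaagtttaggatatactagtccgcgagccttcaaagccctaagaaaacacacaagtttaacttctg
mt-Tq: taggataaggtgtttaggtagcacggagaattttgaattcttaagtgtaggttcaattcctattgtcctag
mt-Tl1: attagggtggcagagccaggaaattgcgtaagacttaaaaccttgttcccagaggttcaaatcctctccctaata
mt-Tm: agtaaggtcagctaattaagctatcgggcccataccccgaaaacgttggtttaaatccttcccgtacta

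mt-Tp, the gene nearest the light-strand promoter, had 98 reads (213 TPM) in JC-M3, 81 reads (184 TPM) in JC-P and 29 reads (80.6 TPM) in JC-WT. It was higher in both tumour-derived populations than in JC-WT, by 1.40 for JC-M3 (0.79 to 2.05) and 1.18 for JC-P (0.56 to 1.85) on the log2 scale, and JC-M3 over JC-P, at 0.21, spanned 0 (-0.23 to 0.66). mt-Nd6, of the same strand, was likewise higher in both than in JC-WT. mt-Tw had 36 reads in JC-M3, 16 in JC-P and 19 in JC-WT, and mt-Tq had 33 reads in JC-M3, 14 in JC-P and 26 in JC-WT. In both genes JC-P was lowest, with log2 ratios for JC-M3 over JC-P of 1.10 (0.22 to 2.06) for mt-Tw and 1.16 (0.23 to 2.19) for mt-Tq. mt-Tq, though of the light strand, was also lower in JC-P than in JC-WT, at -1.17 (-2.24 to -0.19). mt-Tl1, which directly abuts mt-Rnr2 and mt-Nd1, had 23 reads in JC-M3, 35 in JC-P and 28 in JC-WT. mt-Tm had 11 reads in JC-M3, 2 in JC-P and 6 in JC-WT. The other 8 genes with any read had at most 9 in a library, such as mt-Ta with 9 reads in JC-M3, 3 in JC-P and 1 in JC-WT. Past the 1 TPM minimum, 8 of 12 tRNA genes were 2-fold or more different for JC-M3 over JC-P, 4 for JC-M3 over JC-WT and 9 for JC-P over JC-WT. Of measured features 9.2%, 11.4% and 7.1% were in these comparisons. Of the 12 tRNA genes 7 had under 10 reads in every library. The counts are therefore given as a description and are not read as a result about these genes.

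**Figure D3:**
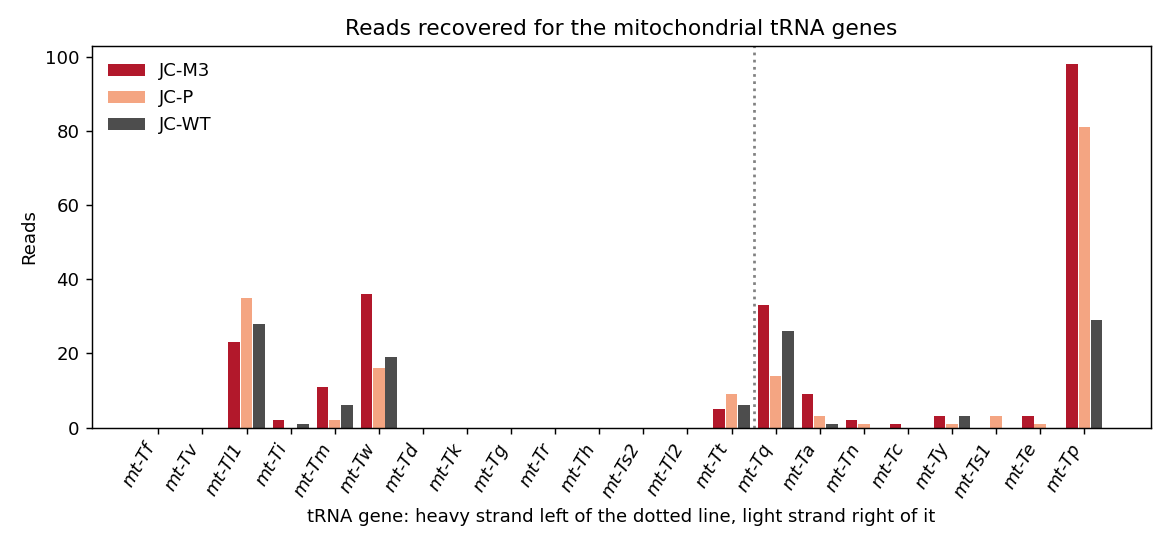
Reads recovered for each of the 22 tRNA genes in JC-M3, JC-P and JC-WT; bars are single libraries and the dotted line separates heavy-strand genes on the left from light-strand genes on the right, each in genome order. mt-Tp has 98, 81 and 29 reads, and 9 heavy-strand genes have none.

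Nuclear copies limit how far several of these levels can be read. Windows of 50 bases from each member were looked up in all other annotated transcripts of GENCODE M21, and 15 copies were found, 9 of them past a mean of 1 TPM. Of these 9, 7 lie side by side on the minus strand of chromosome 1 in a block of 4663 bases (chr1:24611535-24616197) that follows the mitochondrial order from mt-Co1 to mt-Nd4. The block held Gm29216 (a copy of part of mt-Co1), Gm28661 (mt-Co2), Atp6-ps (mt-Atp6), Gm28437 (mt-Co3), Gm28438 (mt-Nd3), Gm10222 (mt-Nd4l) and Gm28439 (part of mt-Nd4). In the aligned bases Gm28661, Atp6-ps, Gm28437, Gm10222 and Gm28439 had 0 differences from the mitochondrial gene, Gm28438 had 1 in 345 and Gm29216 had 6 in 492. The single difference of Gm28438 is T3C, counted from the first base of mt-Nd3, and is in capitals in the first 61 bases of mt-Nd3 (chrM:9459-9519, plus strand) and of its copy (chr1:24613059-24613119, minus strand).
mt-Nd3: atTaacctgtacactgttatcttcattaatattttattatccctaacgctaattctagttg
Gm28438: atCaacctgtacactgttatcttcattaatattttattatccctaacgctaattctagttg

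The genes fell into separate groups by how much of them is copied. All windows of mt-Co2 occur in another transcript, as do 99.9% of mt-Co3, 99.5% of mt-Atp6, 98.8% of mt-Nd4l and 98.0% of mt-Nd3. These 5 genes ranged only from 18.4 TPM (mt-Nd3 in JC-M3) to 717 TPM (mt-Co2 in JC-P). Reads that fit a gene and its copy equally may be missing from these levels. The levels, and sums that include them, may then be understated, which was not tested. mt-Nd4 was shared for 62.2% and mt-Co1 for 51.1%, mt-Nd2 for 8.19%, mt-Nd5 for 7.61% and mt-Rnr2 for 1.04%. mt-Nd1, mt-Atp8, mt-Nd6, mt-Cytb and mt-Rnr1 had no shared window. The stretch of chromosome 1 between Atp6-ps and Gm28661 is 233 bases long, against 230 between mt-Co2 and mt-Atp6, where mt-Atp8 lies. It holds no annotated transcript and was not analysed here, so a copy of mt-Atp8 in it would not have been found.

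In the chromosome 1 block, copies of nearly whole genes had levels of the same order as their members. Atp6-ps had 477 TPM in JC-M3, 499.8 in JC-P and 417 in JC-WT, above mt-Atp6 in all 3 libraries, and took 64.0% of the reads of the pair in JC-M3, 60.1% in JC-P and 63.0% in JC-WT. Gm28661 had 435 TPM in JC-M3, 362 in JC-P and 326 in JC-WT, or 43.0%, 33.4% and 35.3% of the reads it and mt-Co2 held. Gm28437 had 198 TPM in JC-M3, 214 in JC-P and 204 in JC-WT, close to mt-Co3. Reads of identical sequence cannot show which of a pair they came from, so the split within a pair is uncertain. Gm10222 had 81.3 TPM in JC-M3, 51.8 in JC-P and 50.1 in JC-WT, and Gm28438 had 28.7, 32.6 and 26.5 TPM. Where only part of the gene is copied, the copy was far below the member: Gm29216 had 270 TPM in JC-M3, 400 in JC-P and 247 in JC-WT, and Gm28439 had 60.4, 48.6 and 37.0 TPM. The remaining 2 copies past the minimum, Gm13340 (mt-Co1) and Gm13341 (mt-Co2) on chromosome 2, averaged 6.55 and 1.47 TPM. Adding each chromosome 1 copy to its member moved 5 of 21 ratios past the member's counting interval, and turned 1 round: mt-Co2 for JC-M3 over JC-WT was -0.06 alone and 0.13 with Gm28661. For JC-M3 over JC-P the sums of mt-Co2, mt-Atp6, mt-Co3 and mt-Nd3 lay nearer 0 than the members. They were -0.097 against -0.32 for mt-Co2 and -0.16 against -0.31 for mt-Atp6. For mt-Co3 the sum was -0.29 against -0.46, and for mt-Nd3 -0.51 against -0.89. The higher levels of these genes in JC-P kept their direction and were smaller in the sums, while mt-Co1 was -0.38 with or without its copy. For mt-Nd4l the sum lay further from 0, at 0.40 against 0.13, and mt-Nd4 was 0.32 with or without its copy. For JC-P over JC-WT mt-Co3 was 0.22 with its copy and 0.34 alone.

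**Figure D4:**
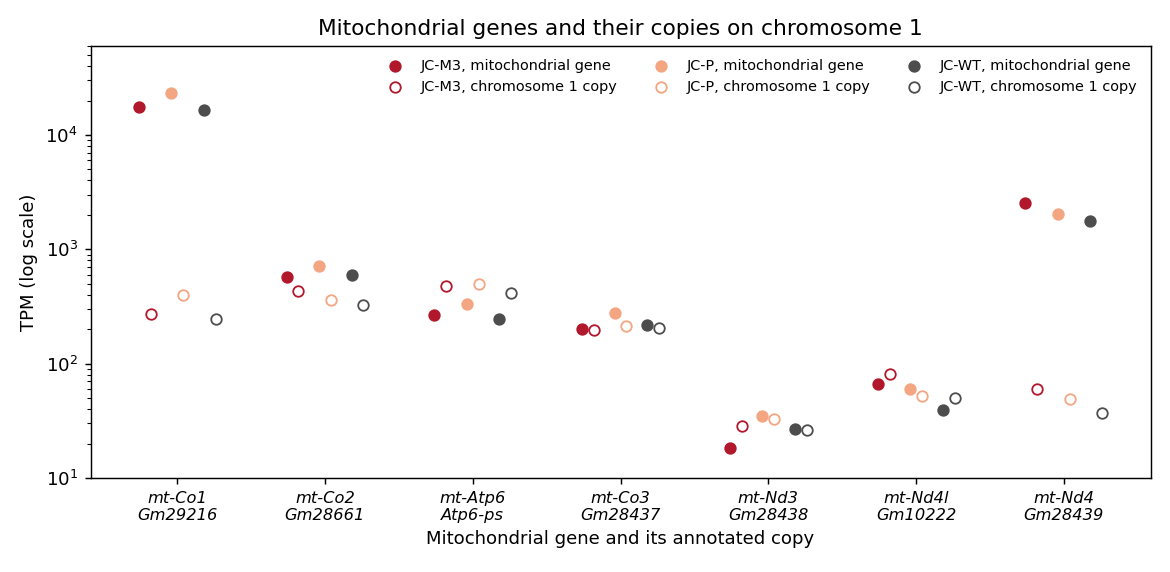
Level in TPM, on a log axis, of each of 7 mitochondrial genes and of its annotated copy in the chromosome 1 block, in JC-M3, JC-P and JC-WT. The copy of mt-Atp6 lies above its member in all 3 libraries, and the copies of mt-Co1 and mt-Nd4 lie far below theirs.

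Leaving the copied genes aside altered the medians. The 6 protein genes with under 10% of windows shared (mt-Nd1, mt-Nd2, mt-Atp8, mt-Nd5, mt-Nd6 and mt-Cytb) had median log2 ratios of 0.15 for JC-M3 over JC-P, 0.65 for JC-M3 over JC-WT and 0.33 for JC-P over JC-WT. The 7 with more had -0.32, 0.09 and 0.36. All 6 of the lightly shared genes were higher in JC-M3 than in JC-WT and higher in JC-P than in JC-WT. Order by level could be checked only among the 10 protein and rRNA genes with at least 100 unshared windows. Among these, reads per unshared window gave the same order as TPM in JC-WT, and mt-Nd4 and mt-Nd2 changed places in JC-M3 and JC-P. mt-Co2, mt-Co3, mt-Atp6, mt-Nd4l and mt-Nd3, the most copied genes, had too few such windows. Their place in the order was therefore not checked.

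Nuclear genes that act on these transcripts, and the nuclear subunits of the same complexes, had list medians between -0.29 and 0.23. The lists are described by the median log2 ratio of their measured members for JC-M3 over JC-P, JC-M3 over JC-WT and JC-P over JC-WT, in that order, beside -0.01, 0.00 and 0.01 for all measured features. A log2 ratio below 0 was held by 50.7%, 49.7% and 49% of measured features in these comparisons, against which the counts below 0 are to be read. For transcription of the genome (12 of 12 measured) the medians were 0.07, -0.08 and -0.06, and no gene was 2-fold different. Tfam, which packages mitochondrial DNA and opens its promoters, had the highest ratios of that list in JC-M3. Its level was 43.6 TPM in JC-M3, 31.6 in JC-P and 27.0 in JC-WT, and its log2 ratio was 0.46 for JC-M3 over JC-P (0.34 to 0.59) and 0.68 for JC-M3 over JC-WT (0.55 to 0.83). Mrpl12, a ribosomal protein that also binds the mitochondrial RNA polymerase, had the lowest ratio over JC-WT, at -0.56 for JC-M3 and -0.65 for JC-P. Mterf3, a termination factor family member, had the lowest ratio for JC-M3 over JC-P, at -0.34, and its relative Mterf2 the highest for JC-P over JC-WT, at 0.84.

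For RNA cleavage, polyadenylation and decay (22 measured) the medians were 0.01, -0.10 and -0.15, and 18 of 22 were below 0 for JC-P over JC-WT. Pnpt1, the exonuclease of the mitochondrial degradosome, had 99.0 TPM in JC-M3, 97.9 in JC-P and 61.7 in JC-WT, with the highest log2 ratio of the list over JC-WT, at 0.68 for JC-M3 and 0.66 for JC-P. Supv3l1, its helicase partner, had 34.4 TPM in JC-M3, 22.3 in JC-P and 30.2 in JC-WT, with the highest log2 ratio for JC-M3 over JC-P, at 0.61. Ptcd2, a pentatricopeptide protein linked in mice to processing of the mt-Cytb transcript, had 25.5 TPM in JC-M3, 51.0 in JC-P and 53.0 in JC-WT. It had the lowest log2 ratios of JC-M3, at -0.99 over JC-P (-1.21 to -0.80) and -1.04 over JC-WT (-1.27 to -0.85), and the only gene of this list called 2-fold different. Tbrg4, a FASTK family member, had the lowest ratio for JC-P over JC-WT, at -0.66.

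Replication and nucleoid genes (18 measured) had medians of 0.14, 0.03 and -0.12, from Dna2 at 0.86 to Primpol at -0.29 for JC-M3 over JC-P, Primpol at 0.58 to Slc25a33 at -0.40 for JC-M3 over JC-WT, and Primpol at 0.87 to Dna2 at -0.75 for JC-P over JC-WT. Mitochondrial aminoacyl-tRNA synthetases, listed with the amidotransferase genes Qrsl1, Gatb and Gatc (22 measured in all), had medians of 0.23, -0.09 and -0.29. Of the 22 genes, 19 were below 0 for JC-P over JC-WT. Qrsl1 at 0.67 and Hars2 at -0.26 bounded them for JC-M3 over JC-P, Tars2 at 0.50 and Pars2 at -0.59 for JC-M3 over JC-WT, and Rars2 at 0.34 and Sars2 at -1.0 for JC-P over JC-WT. Enzymes that modify mitochondrial tRNA and rRNA (25 measured) behaved alike, with 0.21, 0.06 and -0.28, and 21 of 25 below 0 for JC-P over JC-WT. Their extremes were Yrdc at 0.70 and Mettl17 at -0.43 for JC-M3 over JC-P, Yrdc at 0.36 and Mettl17 at -0.86 for JC-M3 over JC-WT, and Nsun3 at 0.45 and Pus1 at -0.61 for JC-P over JC-WT. Translation factors (17 measured) had medians of -0.11, -0.05 and -0.05. Gfm2, a ribosome recycling factor, had their lowest log2 ratios of JC-M3, at -1.16 over JC-P and -1.04 over JC-WT, and Tufm, the elongation factor Tu, for JC-P over JC-WT, at -0.43. The highest were Gfm1 at 0.51 for JC-M3 over JC-P and Mtrf1l at 0.61 for JC-M3 over JC-WT and 0.39 for JC-P over JC-WT.

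The nuclear partners of the encoded subunits had medians below 0 in all 4 complexes, both for JC-M3 and for JC-P over JC-WT. Whereas the summed level of the mitochondrially encoded complex I genes was higher in JC-M3 and JC-P than in JC-WT, the 37 nuclear complex I subunits had medians of -0.02, -0.12 and -0.07, with 26 of 37 below 0 both for JC-M3 over JC-WT and for JC-P over JC-WT. Ndufc1 at 0.43 and Ndufa1 at -1.01 bounded them for JC-M3 over JC-P, Ndufb1 at 0.63 and Ndufs4 at -0.93 for JC-M3 over JC-WT, and Ndufa1 at 0.77 and Ndufa10 at -0.53 for JC-P over JC-WT. The 9 nuclear complex III subunits had -0.17, -0.23 and -0.06, beside mt-Cytb at 0.18, 0.44 and 0.27. Uqcr11, a small subunit of that complex, departed from them, at 442 TPM in JC-M3, 123 in JC-P and 253 in JC-WT. Its log2 ratios were 1.84, 0.80 and -1.03, and the other extremes were Uqcrfs1 at -0.44, Uqcrc1 at -0.60 and Uqcr10 at 0.16. For complex IV 13 of 16 nuclear subunits were measured, with medians of -0.10, -0.18 and -0.09, between Cox7a1 (0.83, 1.5 and 0.67, from a mean of 1.04 TPM) and Cox7c (-0.96 over JC-P and -1.05 over JC-WT in JC-M3) or Cox7a2 (-0.39 for JC-P over JC-WT). The 18 nuclear ATP synthase subunits and regulators had -0.09, -0.18 and -0.04. Atp5mc2 at 0.28 and Atp5if1 at -0.49 bounded them for JC-M3 over JC-P, Atp5f1d at 0.41 and Atp5f1e at -0.70 for JC-M3 over JC-WT, and Atp5if1 at 0.35 and Atp5f1e at -0.47 for JC-P over JC-WT.

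**Figure D5:**
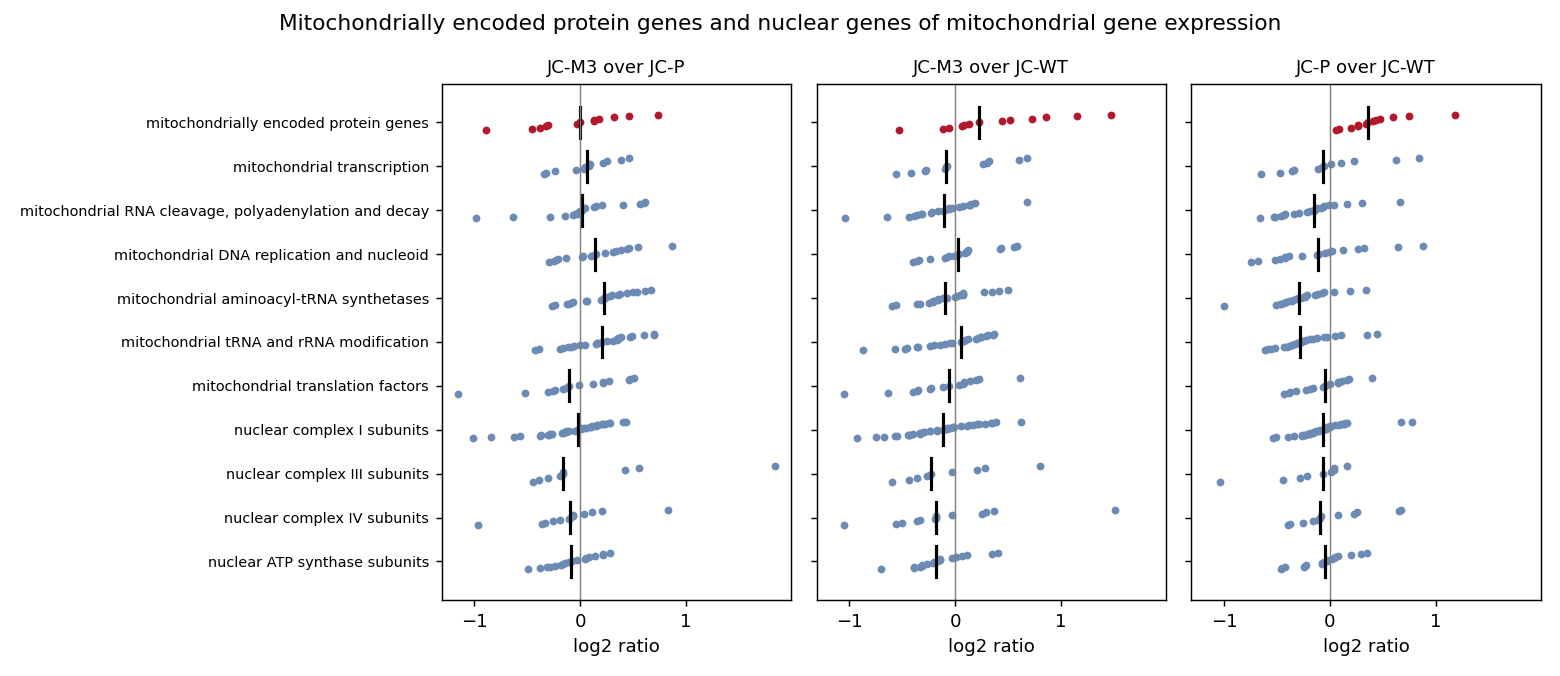
Log2 ratio of TPM + 0.5 of the measured members of each nuclear list and of the mitochondrial protein genes, for JC-M3 over JC-P, JC-M3 over JC-WT and JC-P over JC-WT; each point is 1 gene and the bar is the list's median. The mitochondrial protein genes have medians of 0.00, 0.22 and 0.36, and the nuclear lists lie between -0.29 and 0.23.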

How the data were processed

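The authors deposited TPM for 55471 features in 3 libraries, 1 per population; STAR 2.7.9a, FastQC 0.11.9 and featureCounts appear in the submitters' processing notes, with the builds mm10 and GRCm38. Sources used here do not give the annotation, the strand setting or the TPM formula.

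The members, lists and rules were chosen with earlier results of these data known. The design foresaw no replicates, so no test was run. Ratios are log2 of TPM + 0.5, and a call is a 2-fold difference among features that average 1 TPM or more. TPM times merged exon length (GENCODE M21) gave whole reads, within 0.01 of a read, for 98.5% of expressed features in JC-M3, 98.5% in JC-P and 98.4% in JC-WT. Intervals and the floor of 3 reads rest on these and cover counting error only. The scripts were tested on simulated data. Named were all protein and rRNA genes, tRNA genes with 10 or more reads in a library, the highest and lowest gene of each nuclear list in each comparison, and nuclear copies past 1 TPM. Nuclear copies were searched in annotated transcripts, not in the genome sequence. Scipy 1.17.1, pandas 2.3.3, matplotlib 3.10.9 and numpy 2.4.6 ran under Python 3.11.15.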

Additional observations from a re-analysis of the deposited data

How the results depend on the processing

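No paired analysis was possible because each group is 1 library, and for the same reason no library could be left out. Values are given for JC-M3 over JC-P, JC-M3 over JC-WT and JC-P over JC-WT. The median log2 ratio of the protein genes (0.00, 0.22 and 0.36) moved past its counting interval (the median limits of its genes) in 3 cases: among the 6 genes with under 10% of windows shared it was 0.15 in the first comparison and 0.65 in the second, and without mt-Atp8, mt-Nd4l, mt-Nd3 and mt-Nd6 it was 0.13 for JC-M3 over JC-WT. The summed ratio (-0.06, 0.21 and 0.28) was 0.24 for JC-M3 over JC-WT and 0.31 for JC-P over JC-WT in the protein genes, -0.20, -0.61 and -0.41 in the rRNA genes, and 0.13, 0.28 and 0.15 without mt-Co1, where JC-M3 over JC-P changed sign. It was 0.22 for JC-M3 over JC-WT and 0.29 for JC-P over JC-WT with TPM rescaled outside the mitochondrial genome, and -0.073, 0.23 and 0.31 with median ratio scaling. The number of features called 2-fold different (1336, 1658 and 1031) was 2312, 2691 and 1935 with no filter, 423, 540 and 219 at a mean of 10 TPM or more, 771, 993 and 534 with a pseudocount of 2, and 3390, 3852 and 2740 at 1.5-fold. The filters test more or fewer features, the 1.5-fold threshold is lower, and a larger pseudocount draws the ratios of low features toward 0, so these shifts follow from the settings. Of 80 ratios of single members, none crossed the 2-fold threshold with a pseudocount of 0.1 or under either rescaling, and 3 did with a pseudocount of 2, all of tRNA genes (mt-Ty and mt-Te for JC-M3 over JC-P, mt-Ta for JC-P over JC-WT). Ratios near 0 changed sign for 1 member under the first rescaling and 2 under the second. The median of each of the 10 nuclear lists stayed within the like interval in all alternatives run. Windows of 100 bases and the sums with chromosome 1 copies were added after the data were seen. Depth limits the tRNA genes and mt-Nd3, mt-Nd4l and mt-Atp8 most.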
